A study of Mus musculus with 18 samples.

Results

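The 44 genes described here encode glycoproteins of the extracellular matrix, components of elastic fibres and basement membranes, and the enzymes and binding proteins that assemble them. They were given as a list by name, all 44 were found in both deposited count tables, and they are 44 of the 46983 gene rows. The libraries came from male mice of the inbred strain C57BL/6J, and every library's description carries HFD. Bone marrow samples are titled mBMSC and adipose samples mAT-MSC VAT. In each tissue 4 libraries had no glutamine (CTRL) and 5 had glutamine (GLN), which makes 18 in all. The series title asks about glutamine, skeletal strength and fitness in obese mice. Nothing in the sources used here gives the age of the mice, the length of the diet, the glutamine dose or the way the cells were isolated. The labels do not say that libraries of a group came from separate animals, so a p-value reflects only how far these samples spread, and that spread may be technical.

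The extracellular matrix is the protein and sugar scaffold around cells. Fibronectin, tenascin, thrombospondins and periostin bind cells and collagen. Fibrillins form microfibrils onto which elastin is laid with the help of fibulins, and lysyl oxidases cross-link elastin and collagen. Latent TGF-beta binding proteins tether the stored growth factor TGF-beta to microfibrils. Basement membranes are thin sheets under epithelium and endothelium and around fat and muscle cells, built from laminins, type IV collagen, nidogens and perlecan. In adipose tissue this matrix is made by stromal cells and adipocytes, and in bone marrow by stromal cells and osteoblasts.

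Levels are CPM, a gene's share of its library's counts per 1e6, without length correction, since each library reads the 3′ end of transcripts. Library totals were 35871168 to 59529238 counts in adipose and 13970788 to 37984603 in marrow. In marrow, the number of genes with at least 100 counts ran from 1755 to 7323 per library. The lowest counts of a gene in marrow followed its adipose counts. Over the 4110 genes with at least 20000 counts summed over the 9 adipose libraries, the 10th percentile of the ratio of marrow to adipose counts was 1.51 to 3.90 per 10000 adipose counts, by library. This value is called the floor of a marrow library. A marrow value is called above the floor at 5 times this ratio and at least 100 counts. What the floor comes from was not tested. The labels place all libraries on the same sequencing lane. The 12 listed fibroblast and progenitor markers summed to 19940 to 26649 CPM in adipose and 1733 to 4864 CPM in marrow, with none at 0 in either tissue. The 13 osteoblast markers summed to 1678 to 11640 CPM in marrow and 35.7 to 92.5 CPM in adipose, and the 10 neutrophil markers to 2699 to 54234 and 50.8 to 291.6 CPM. Of the neutrophil markers, Ly6g was at 0 in every library of both tissues. The 10 marrow stroma markers summed to 2265 to 13457 CPM in marrow and 584 to 998 CPM in adipose, with none at 0. In 7 of 9 marrow libraries 1 to 3 osteoblast markers were at 0 (Mepe in all 7, with Ifitm5, Sp7 or Dmp1 in 5). In every adipose library 1 or 2 of them were at 0, Mepe always among them.

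In adipose the members held 2.96% ± 0.277 (SD, n = 4) of all counts in CTRL and 3.29% ± 0.232 (SD, n = 5) in GLN. In marrow they held 2.21% ± 1.21 (SD, n = 4) and 2.92% ± 0.995 (SD, n = 5). Most of the marrow share was 1 gene, Sparc. Without Sparc the members held 2.22% and 2.32% of adipose counts but 0.476% and 0.594% of marrow counts. Basement membrane genes held 0.470% and 0.450% in adipose and 0.0281% and 0.0450% in marrow. Microfibril and elastic fibre genes held 0.707% and 0.754% in adipose and 0.0599% and 0.0449% in marrow. In bulk samples, fewer cells of a type and less RNA per cell cannot be told apart.

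**Figure D1:**
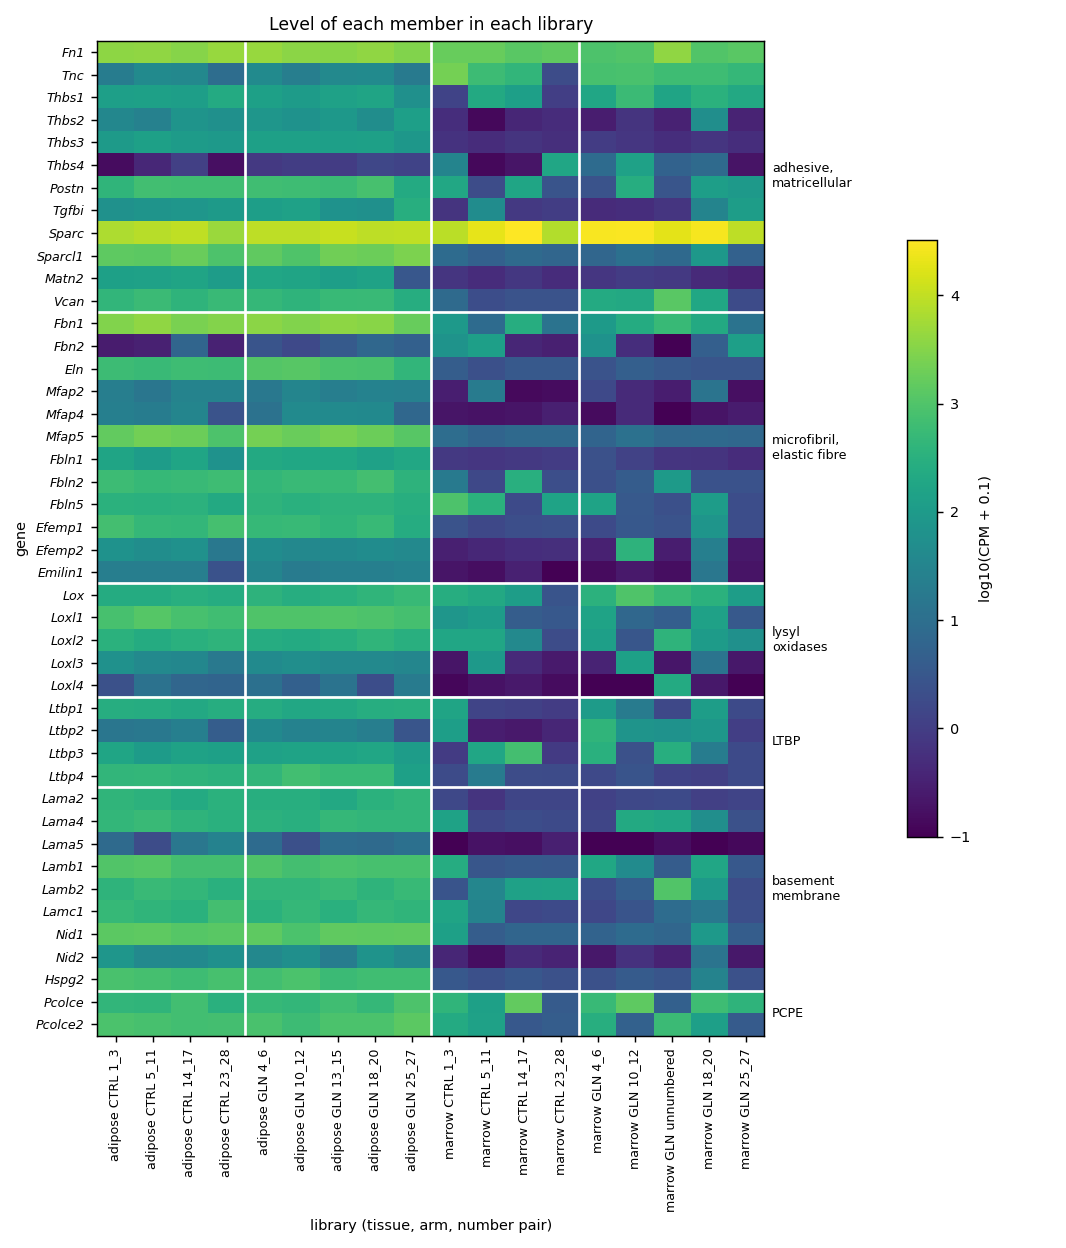
Level of each of the 44 members in each of the 18 libraries, as log10 of CPM plus 0.1, with rows grouped by role and columns by tissue and arm. Adipose columns are even, while in marrow the rows of Fn1 and Sparc are high throughout and most other rows are high in some libraries and near 0 in the rest.

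Adipose libraries resembled each other and marrow libraries did not. In an adipose library 41 to 43 of the members had at least 100 counts. In a marrow library 5 to 20 members were above the floor in CTRL and 10 to 33 in GLN. Only Fn1 and Sparc were above the floor in all 9 marrow libraries. Tnc and Lox were above it in 8, and Thbs1, Loxl2 and Pcolce in 7. Another 8 members were above it in none: Thbs3, Matn2, Eln, Mfap4, Mfap5, Fbln1, Lama2 and Lama5. A further 8 were above it in 1 library. Those were Thbs2, Sparcl1, Efemp1, Emilin1, Nid2 and Hspg2 in GLN library 18_20, Ltbp4 in CTRL library 5_11 and Loxl4 in the GLN library whose number pair matches no title, called unnumbered. Library 18_20 was also the one with 7323 genes at 100 counts. The part of that breadth in its count of members was not tested.

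**Figure D2:**
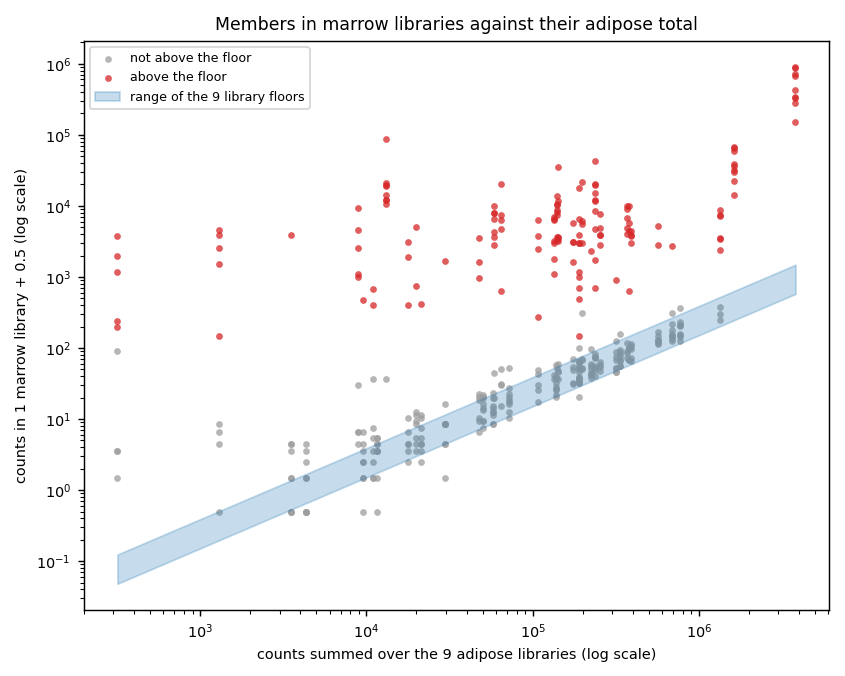
Counts of each member in each marrow library (vertical, log scale, plus 0.5) against its counts summed over the 9 adipose libraries (horizontal, log scale). Grey points are not above the floor. Those of members with at least 20000 adipose counts lie mostly along the blue band of the 9 library floors, 1.51 to 3.90 per 10000 adipose counts. Values under 100 counts are grey wherever they lie, so grey points of members with few adipose counts, such as Thbs4, can lie above the band. Red points, above the floor, lie apart from it.

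Among the 31 members with at least 20000 adipose counts, 181 values in marrow libraries were below the floor's limit, with a median of 2.45 counts per 10000 adipose counts (quartiles 1.89 and 3.06). A low marrow value of such a member is therefore read here as near the floor and not as a level. Lists of values below follow the order of the number pairs in the labels, which is 1_3, 5_11, 14_17 and 23_28 for CTRL and 4_6, 10_12, 13_15, 18_20 and 25_27 for GLN. In marrow the unnumbered library stands in the place of 13_15.

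The adhesive glycoproteins were led by Fn1 and Sparc. Fn1 (chromosome 1, 71585520 to 71653200, GRCm38), which encodes fibronectin, read 3700.2, 3989, 3283 and 4646 CPM in CTRL and 4483, 3506, 3436, 3868 and 2941 CPM in GLN adipose libraries. In marrow it read 1691, 1698, 1285 and 1489.6 CPM in CTRL and 959.7, 1013, 4012, 1013 and 1277 CPM in GLN. The tissues overlapped through the unnumbered marrow library, and the other 8 marrow values were below every adipose value. Sparc (chromosome 11, 55394500 to 55423183), which encodes the collagen-binding protein osteonectin of bone and other matrices, read 6784, 8472, 9684 and 4841 CPM in CTRL and 9249, 9169.9, 11097, 9298 and 9889 CPM in GLN adipose libraries. In marrow Sparc read 8884, 20345, 32544 and 7633 CPM in CTRL and 28834, 30943, 19785, 27503 and 9191 CPM in GLN. Of the 9 marrow values, 6 were above every adipose value and 3 were inside the adipose range.

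Postn encodes periostin, a matricellular protein of periosteum and fibrous tissue. Its adipose values were 398, 704, 653 and 651 CPM in CTRL and 677, 629, 572, 805 and 238 CPM in GLN. The marrow values of Postn were 203, 1.84, 174 and 2.63 CPM in CTRL and 2.45, 278, 2.78, 126 and 91.5 CPM in GLN. They split into 5 libraries between 91.5 and 278 CPM and 4 libraries below 3 CPM, with both kinds in both arms. Thbs1, thrombospondin-1, an activator of latent TGF-beta, read 127, 136, 125 and 231 CPM in CTRL and 138, 105, 141, 167 and 59.6 CPM in GLN adipose libraries. Thbs1 in marrow was 1.16, 228, 130.4 and 0.944 CPM in CTRL and 182, 566, 168, 324 and 211 CPM in GLN, with all 5 GLN libraries above the floor and 2 of 4 CTRL libraries. Its arms overlapped, since CTRL library 5_11 was above 3 GLN libraries.

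Tnc (chromosome 4, 63959785 to 64047015) encodes tenascin-C, a glycoprotein of remodelling matrix. It read 20.6, 43.4, 37.7 and 9.03 CPM in CTRL and 42.7, 22.9, 38.4, 43.8 and 17.6 CPM in GLN adipose libraries. In marrow it read 2267, 611, 434 and 1.79 CPM in CTRL and 824, 868, 625.3, 629.9 and 459 CPM in GLN, with 1 library, CTRL 23_28, below 2 CPM. Vcan encodes versican, a large chondroitin sulfate proteoglycan, and read 424, 558, 384 and 539 CPM in CTRL and 481, 392, 512, 558 and 269 CPM in GLN adipose libraries. In marrow Vcan read 8.08, 1.96, 2.50 and 2.48 CPM in CTRL and 236, 215, 1288, 194 and 1.69 CPM in GLN. No CTRL marrow library was above the floor for Vcan, and 4 of 5 GLN libraries were. The other adhesive members differed among themselves. Thbs4, thrombospondin-4 of tendon and cartilage, was at 0.0555 to 1.39 CPM in adipose and 0.0288 to 185 CPM in marrow, above the floor in 5 of 9 marrow libraries. Thbs3, another thrombospondin, was at 81.5 to 135 CPM in adipose and 0.403 to 0.861 CPM in marrow, above the floor in 0 of 9 marrow libraries. Tgfbi, a TGF-beta-induced ligand of integrins, was at 59.8 to 286 CPM in adipose and 0.387 to 114 CPM in marrow, above the floor in 3 of 9 marrow libraries. Sparcl1, a relative of osteonectin, was at 921 to 2647 CPM in adipose and 5.09 to 85.9 CPM in marrow, above the floor in 1 of 9 marrow libraries. Matn2, a matrilin, was at 2.99 to 184 CPM in adipose and 0.260 to 0.859 CPM in marrow, above the floor in 0 of 9 marrow libraries. Thbs4 was thus the 1 of these 5 with a marrow maximum above its adipose maximum.

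The elastic fibre genes differed widely in level. Fbn1 encodes fibrillin-1, the main microfibril protein, and read 2873, 4039, 2522 and 3078 CPM in CTRL and 3649, 2929, 3848, 3409.8 and 1728 CPM in GLN adipose libraries. In marrow Fbn1 read 92.0, 8.52, 268 and 12.2 CPM in CTRL and 103, 242, 515, 228 and 12.2 CPM in GLN, above the floor in 6 libraries. All 9 marrow values were below every adipose value. Eln (chromosome 5, 134702593 to 134747323) encodes elastin and read 592, 536, 644 and 600.2 CPM in CTRL and 1073, 1175, 908, 869 and 428 CPM in GLN adipose libraries. The marrow values of Eln were 4.19, 2.13, 3.36 and 3.33 CPM in CTRL and 2.41, 4.65, 3.32, 2.76 and 2.699 CPM in GLN, none above the floor. Mfap5, a microfibril-associated glycoprotein, read 1558, 2173, 1913 and 920.5 CPM in CTRL and 2296, 1792, 2419, 1836 and 1188 CPM in GLN adipose libraries. Mfap5 in marrow read 9.45, 5.87, 7.54 and 7.55 CPM in CTRL and 6.03, 11.3, 7.29, 7.41 and 6.86 CPM in GLN, none above the floor.

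Fbln1 and Efemp1 encode fibulins, which link elastic fibres and basement membranes to other matrix. Fbln1 read 166, 109.8, 177 and 63.7 CPM in CTRL and 223, 196, 191, 143 and 203 CPM in GLN adipose libraries. In marrow Fbln1 read 0.711, 0.633, 0.714 and 0.844 CPM in CTRL and 2.20, 1.15, 0.592, 0.577 and 0.390 CPM in GLN, none above the floor. Efemp1 read 724, 471, 453 and 758 CPM in CTRL and 504, 525.8, 400.3, 524 and 264 CPM in GLN adipose libraries. Its marrow values were 2.53, 1.44, 1.96 and 2.14 CPM in CTRL and 1.59, 3.15, 2.43, 74.3 and 1.95 CPM in GLN, with GLN library 18_20 alone above the floor. Fbln2, fibulin-2, was at 367 to 731 CPM in adipose and 1.47 to 302 CPM in marrow, above the floor in 3 of 9 marrow libraries.

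Fbn2, Fbln5 and Efemp2 were the elastic fibre genes with a marrow maximum above the adipose maximum. Fbn2, fibrillin-2 of developing microfibrils, was at 0.167 to 6.99 CPM in adipose and 0 to 132 CPM in marrow, above the floor in 5 of 9 marrow libraries. Fbln5, a fibulin needed for elastic fibre assembly, was at 221 to 383 CPM in adipose and 1.64 to 918 CPM in marrow, above the floor in 5 of 9 marrow libraries. Efemp2, fibulin-4, was at 15.9 to 65.9 CPM in adipose and 0.130 to 357 CPM in marrow, above the floor in 2 of 9 marrow libraries. The microfibril-associated Mfap2 and Mfap4 and the elastin-associated Emilin1 were at 44.3 CPM or less in every library. Mfap2 was at 14.2 to 32.9 CPM in adipose and 0.0357 to 19.7 CPM in marrow, above the floor in 2 of 9 marrow libraries. Mfap4 was at 2.51 to 44.3 CPM in adipose and 0 to 0.358 CPM in marrow, above the floor in 0 of 9 marrow libraries. Emilin1 was at 2.31 to 32.1 CPM in adipose and 0 to 15.2 CPM in marrow, above the floor in 1 of 9 marrow libraries.

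Of the 5 lysyl oxidases, Lox, the founding member, was above the floor in the most marrow libraries. It read 245, 250.3, 302 and 261 CPM in CTRL and 368, 268, 309, 396 and 529 CPM in GLN adipose libraries. In marrow Lox read 273, 216, 119 and 2.58 CPM in CTRL and 357, 970.1, 525, 336 and 118 CPM in GLN, above the floor in every library but CTRL 23_28. The tissues overlapped. Loxl1, the family member that acts mainly on elastin, read 805, 1136, 819 and 676 CPM in CTRL and 996, 967, 1019, 929.6 and 771 CPM in GLN adipose libraries. Its marrow values were 79.3, 112, 4.11 and 3.28 CPM in CTRL and 161, 6.94, 4.26, 142 and 3.45 CPM in GLN, with 4 libraries above the floor and all below every adipose value. Loxl2, a family member that also acts on type IV collagen, was at 229 to 404 CPM in adipose and 1.79 to 381 CPM in marrow, above the floor in 7 of 9 marrow libraries. Loxl3 was at 16.6 to 60.0 CPM in adipose and 0.105 to 136 CPM in marrow, above the floor in 3 of 9 marrow libraries. Loxl4 reached 233 CPM in the unnumbered marrow library and was at most 0.143 CPM in the other 8.

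Among the latent TGF-beta binding proteins, Ltbp2 and Ltbp4 differed in opposite ways. Ltbp2, which binds fibrillin, read 14.4, 15.7, 23.5 and 4.23 CPM in CTRL and 41.9, 27.1, 31.0, 23.1 and 2.77 CPM in GLN adipose libraries. In marrow Ltbp2 read 121, 0.173, 0.143 and 0.298 CPM in CTRL and 405, 72.2, 65.2, 80.7 and 0.976 CPM in GLN, with 5 libraries above every adipose value and 4 below 1 CPM. Ltbp4, which has a role in elastic fibre assembly, read 416, 449, 381 and 352 CPM in CTRL and 429.9, 686, 513, 514 and 138 CPM in GLN adipose libraries. Its marrow values were 1.74, 20.0, 1.79 and 1.69 CPM in CTRL and 1.55, 2.65, 1.18, 1.03 and 1.66 CPM in GLN, all below every adipose value. Ltbp1, a carrier of latent TGF-beta, was at 204 to 284 CPM in adipose and 0.844 to 168 CPM in marrow, above the floor in 4 of 9 marrow libraries. Ltbp3, another carrier, was at 105 to 186 CPM in adipose and 0.745 to 728 CPM in marrow, above the floor in 5 of 9 marrow libraries.

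Of the basement membrane genes, Lamb1 and Nid1 had the highest adipose levels and Lama5 the lowest. Lama4 encodes the laminin alpha chain of vessel and fat-cell basement membranes and read 437, 556, 383 and 319.8 CPM in CTRL and 353, 294, 464, 430.5 and 434 CPM in GLN adipose libraries. In marrow Lama4 read 149.9, 1.41, 1.89 and 1.59 CPM in CTRL and 1.33, 223, 182, 52.4 and 2.28 CPM in GLN, with 4 libraries above the floor. Its 9 marrow values were all below the adipose ones. Lamb1, a laminin beta chain, read 1049, 1145, 743 and 745 CPM in CTRL and 998, 747, 898, 829.6 and 790.0 CPM in GLN adipose libraries. The marrow values of Lamb1 were 261, 2.82, 3.61 and 3.38 CPM in CTRL and 194, 45.5, 3.97, 183 and 3.19 CPM in GLN, again with 4 libraries above the floor. CTRL library 1_3, GLN library 10_12 and GLN library 18_20 were above it for both chains.

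Nid1 encodes nidogen-1, which ties laminin to type IV collagen. It read 1351, 1366, 1169 and 1267 CPM in CTRL and 1416, 913, 1489.9, 1422 and 1449.9 CPM in GLN adipose libraries. Nid1 in marrow read 139, 4.23, 6.07 and 6.26 CPM in CTRL and 5.60, 8.45, 6.63, 89.5 and 4.20 CPM in GLN, with CTRL 1_3 and GLN 18_20 above the floor. Hspg2 encodes perlecan, the heparan sulfate proteoglycan of basement membranes, and read 851, 784, 623 and 794 CPM in CTRL and 695, 883, 574, 654 and 678 CPM in GLN adipose libraries. In marrow Hspg2 read 3.24, 2.16, 3.11 and 2.23 CPM in CTRL and 2.20, 3.72, 2.72, 28.6 and 2.21 CPM in GLN, with GLN 18_20 alone above the floor.

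The other basement membrane members included Lamb2, the laminin chain above the floor in the most marrow libraries. Lamb2, a beta chain, was at 319.8 to 540.1 CPM in adipose and 1.79 to 1049 CPM in marrow, above the floor in 5 of 9 marrow libraries. Lamc1, the gamma chain that most laminins share, was at 317 to 717 CPM in adipose and 1.39 to 169.6 CPM in marrow, above the floor in 4 of 9 marrow libraries. Lama2 was at 209.9 to 434 CPM in adipose and 0.575 to 1.66 CPM in marrow, above the floor in 0 of 9 marrow libraries. Lama5, an alpha chain of many epithelial basement membranes, was at 1.78 to 27.6 CPM in adipose and 0 to 0.199 CPM in marrow, above the floor in 0 of 9 marrow libraries. Nid2, nidogen-2, was at 20.2 to 78.7 CPM in adipose and 0.0575 to 13.4 CPM in marrow, above the floor in 1 of 9 marrow libraries.

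The procollagen C-proteinase enhancers raise the rate at which fibrillar procollagen is trimmed. Pcolce read 426, 414, 683 and 309.7 CPM in CTRL and 495, 453, 652, 480.2 and 961 CPM in GLN adipose libraries. In marrow it read 405, 135, 1508 and 3.72 CPM in CTRL and 521, 1396, 4.80, 647 and 384 CPM in GLN, and the tissues overlapped. Pcolce2 read 888.1, 817, 714 and 738 CPM in CTRL and 833, 615, 893, 892 and 1336 CPM in GLN adipose libraries. The marrow values of Pcolce2 were 235, 139.5, 3.25 and 4.17 CPM in CTRL and 288, 5.15, 580.4, 129 and 3.81 CPM in GLN, and all were below every adipose value. Both enhancers had marrow libraries above the floor, 7 for Pcolce and 5 for Pcolce2, and marrow libraries below 6 CPM.

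The first comparison set adipose against marrow over both arms, 9 libraries each. With TMM scaling, 19 of the 44 members were higher in adipose and 8 were lower, against 40.5% and 11.2% of 15203 genes tested (edgeR quasi-likelihood test, adjusted p under 0.05). The share of members higher in adipose, 43.2%, was near that background, and the share lower was 18.2%, with no test of its difference from the background. Elastin, microfibril, fibulin and basement membrane genes made up most of the first group. The second held Thbs4, Tnc, Fbn2, Ltbp2, Sparc, Thbs1, Pcolce and Lox, while Thbs2 and Thbs3 were in the first. Each tissue has a count table of its own, and a difference between tables cannot be told apart from one between tissues.

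The size and, for many members, the direction of this difference depended on the scaling. Over all genes the median log2 difference stood at 1.43 under TMM, -1.94 under relative log expression, -0.89 under upper-quartile factors and 3.17 under library totals. With TMM 29 of the 44 members and 62% of genes had a positive value. Over these 4 scalings, 16 members were higher in adipose in each, 8 were lower in each, and 20 changed direction, where 39.3%, 20.5% and 40.2% of all genes tested did. Past the threshold in all 4 were Hspg2, Mfap4, Thbs3, Matn2 and Lama2 on the adipose side and Thbs4, Tnc, Fbn2 and Sparc on the marrow side, where 15.7% and 2.56% of genes were. Tested in each arm alone, 13 members were higher and 4 were lower in both arms, where 21.6% and 2.39% of genes were. CPM, used for the levels above, rest on library totals. Among the members that changed direction, Fn1 stood at 1.24 with library totals but at -0.76, -4.62 and -4.42 with TMM, relative log expression and upper-quartile factors. Pcolce2, Lama4 and Lamb1 stood at 2.62, 2.77 and 3.54 with library totals but at -3.02, -2.72 and -1.64 with relative log expression factors.

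The largest differences toward adipose were of members at or near the floor in marrow. Lama2, the laminin chain of muscle and nerve basement membrane, stood at 6.08 ± 0.849 (log2 adipose over marrow ± SE, n = 9 per tissue, adjusted p = 6.57e-06). Matn2 stood at 6.01 ± 0.966 and Mfap5 at 5.95 ± 0.591. Eln stood at 5.92 ± 0.724, Lama5 at 5.91 ± 0.989, Thbs3 at 5.86 ± 0.822, Mfap4 at 5.67 ± 0.849 and Hspg2 at 5.62 ± 0.769. The adjusted p of these 8 members was at most 4.61e-05. The 8 members above the floor in no marrow library all fell between 5.58 and 6.08. The same 8 fell between 1.74 and 2.27 under relative log expression, between 2.16 and 2.59 under upper-quartile scaling and between 7.54 and 8.01 under library totals. They set adipose counts against marrow counts near the floor and are not read as ratios of expression. The other 11 members called higher stood between 2.31 (Loxl1) and 5.58 (Fbln1). Of these, Fbn1, Loxl1 and Lamc1 stood at 2.47, 2.31 and 2.99 with TMM but at -1.45, -1.21 and -0.53 with relative log expression factors, and Fbn1 also at -1.48 with upper-quartile factors.

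The largest differences toward marrow were of members above the floor in 5 or more of the 9 marrow libraries. Adipose libraries held 3 to 67 counts of Thbs4 and 8 to 336 of Fbn2, so the sizes of their differences rest on few adipose counts. Thbs4 stood at -8.17 ± 1.70 (adjusted p = 0.000488), Tnc at -6.40 ± 0.852 (4.73e-06) and Fbn2 at -6.05 ± 1.59 (0.00373). Sparc stood at -3.14 ± 0.281 (2.34e-07) and at -1.24 with library totals. Ltbp2 stood at -3.44 ± 1.25 (adjusted p = 0.0266), Thbs1 at -2.03 ± 0.838 (0.0478), Pcolce at -1.89 ± 0.780 (0.0473) and Lox at -1.56 ± 0.647 (0.049). These last 4 calls depended on single libraries. Leaving out 1 library at a time, the call of Lox was lost for 15 of the 18 (all but marrow CTRL 23_28, GLN 18_20 and GLN 25_27), with values from -1.66 to -1.20. That of Thbs1 was lost for 15 (all but marrow CTRL 1_3, CTRL 23_28 and GLN 18_20), from -2.17 to -1.54. That of Pcolce was lost for 16 (all but marrow CTRL 23_28 and the unnumbered library), and it stood at -0.70 without marrow CTRL 14_17 (adjusted p = 0.425). That of Ltbp2 was lost for 4, adipose CTRL 1_3 and 23_28, marrow GLN 4_6 and marrow CTRL 1_3, and without the last it stood at -0.01. Lox stood at 0.25 with library totals, so its direction depended on the scaling. With marrow counts near the floor set to 0, Thbs1, Pcolce and Lox stood at 0.0873, 0.31 and 0.62.

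**Figure D3:**
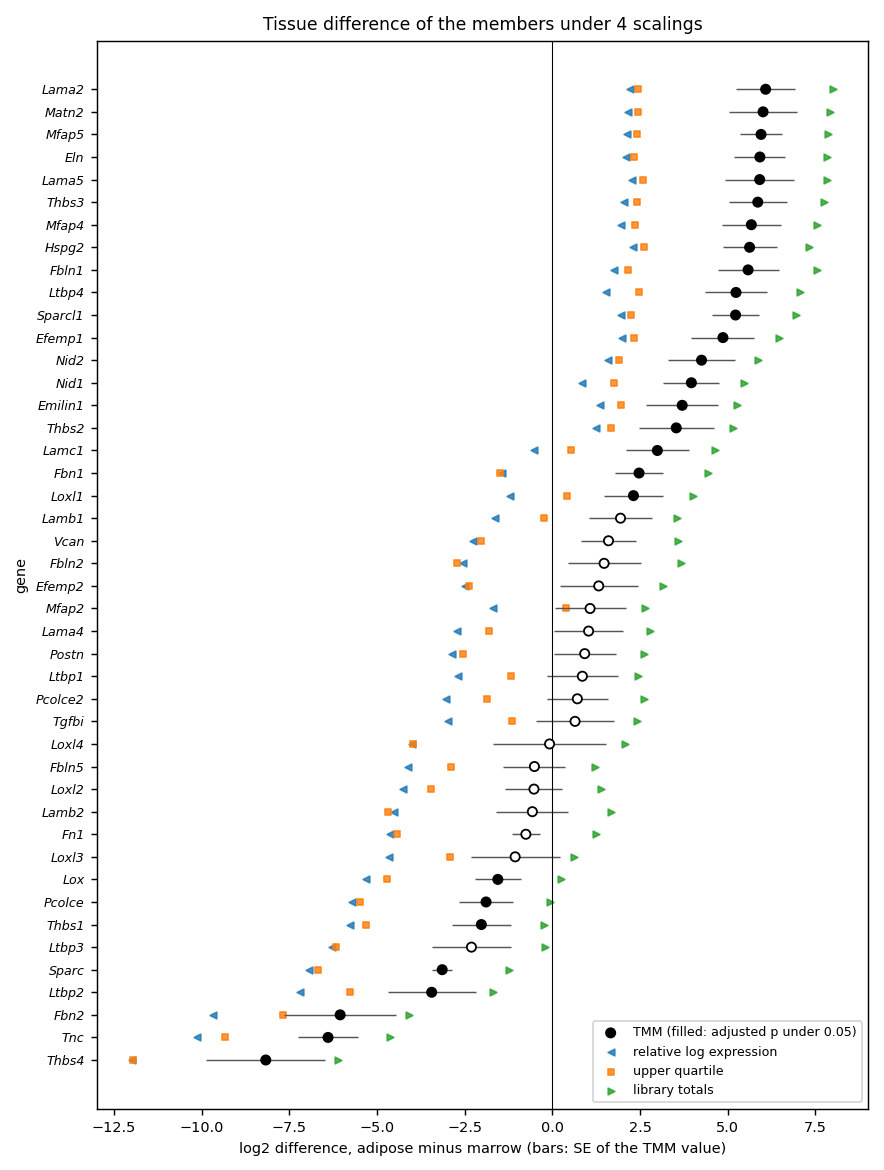
Log2 difference of each member, adipose minus marrow, under TMM (circles, with SE, filled where the adjusted p is under 0.05) and under 3 other scalings. The lowest 8 members and the top 16 stay on 1 side of 0 in all 4 scalings, and 20 members between them cross it.

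By role, 4 of the 12 adhesive genes were higher and 4 lower in adipose, where 40.5% and 11.2% of all genes tested were. Of the 12 microfibril and elastic fibre genes 7 were higher and 1 lower, and of the 9 basement membrane genes 6 were higher and 0 lower, with 1 negative value. Of the 5 lysyl oxidases 1 was higher (Loxl1) and 1 lower (Lox). Of the 4 latent TGF-beta binding proteins 1 was higher (Ltbp4) and 1 lower (Ltbp2), and of the 2 procollagen C-proteinase enhancers 1 was lower (Pcolce). Among sums of markers of the other cells below, only the mesothelial ones did not overlap between the tissues. The endothelial and mural ranges overlapped only at their edges. In adipose the 12 endothelial markers summed to 719 to 2615 CPM and the 12 mural markers to 544 to 1386 CPM, with none at 0. In marrow they summed to 4.52 to 723 CPM and 3.89 to 546 CPM, where Tie1 or Emcn was at 0 in 2 libraries and 1 to 3 mural markers (Cspg4, Cnn1, Kcnj8 or Tagln) in all but 1. The 10 mesothelial markers summed to 8.75 to 834 CPM in adipose, where at most 1 was at 0, and to 1.41 to 3.72 CPM in marrow, where 1 to 3 were at 0, Krt8 in all 9 libraries. The 12 chondrocyte markers summed to 51.5 to 279 CPM in adipose and 96.4 to 6705 CPM in marrow. In every library of both tissues 1 or 2 of them were at 0, Matn1 always among them. The 12 macrophage markers summed to 410 to 1932 CPM in adipose, where at most 1 was at 0, and to 227 to 1608 CPM in marrow. There 0 to 3 of them were at 0 (Fcgr1, Cd163, Adgre1 or C1qa). For the 9 erythroid markers found, the sums were 1917 to 17865 and 4212 to 18230 CPM. The 10 adipocyte markers summed to 2116 to 4361 and 151 to 3292 CPM, with none at 0 in adipose and 0 to 2 in marrow (Lep, Retn, Plin1 or Cidec). For the 10 megakaryocyte and platelet markers the sums were 29.1 to 207 and 0.53 to 385 CPM, with 3 to 7 at 0. The part of these cells in the tissue difference was not tested.

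Tnc, Hspg2, Lama2 and Vcan stand for the 2 sides of this comparison and for the next ones, and 1 window before a listed start of each gene is printed to show its letters. The windows come from the RefSeq promoter table (GRCm38.p6), are read 5′ to 3′ on the gene's own strand, end just before the start, and leave out annotated exon bases. The Lama2 window precedes the RefSeq start but lies 2566 bases inside the longer gene that GENCODE M21 annotates. Tnc (chr4:64047016-64047265, minus strand) was lower in adipose in all 4 scalings. Hspg2 (chr4:137468553-137468768, plus strand) and Lama2 (chr10:27616943-27617192, minus strand) were higher in adipose in all 4. Vcan (chr13:89742513-89742762, minus strand) is the member called in the difference of glutamine effects, a call that 11 of 18 leave-one-out fits end. Capitals mark matches on either strand to the motifs searched. The TATA box was searched as TATAAA, and the GC box, known as a site of Sp1-type factors, was searched as GGGCGG. The CCAAT box was searched by the letters of its name. For the motif of AP-1 factors the letters were TGANTCA, where N is any base. For the motif of TEAD factors, which act with YAP and TAZ, the letters were CATTCC. No matches overlap each other in these windows.
Tnc: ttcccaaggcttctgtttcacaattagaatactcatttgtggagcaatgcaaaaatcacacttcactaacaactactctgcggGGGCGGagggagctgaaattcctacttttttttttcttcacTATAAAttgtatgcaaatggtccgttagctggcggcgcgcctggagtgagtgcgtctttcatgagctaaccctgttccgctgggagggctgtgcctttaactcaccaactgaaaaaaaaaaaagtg
Hspg2: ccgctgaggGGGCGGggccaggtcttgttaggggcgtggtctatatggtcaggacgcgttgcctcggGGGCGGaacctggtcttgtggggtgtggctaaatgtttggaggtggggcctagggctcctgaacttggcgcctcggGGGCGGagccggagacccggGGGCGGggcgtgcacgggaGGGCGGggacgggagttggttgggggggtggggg
Lama2: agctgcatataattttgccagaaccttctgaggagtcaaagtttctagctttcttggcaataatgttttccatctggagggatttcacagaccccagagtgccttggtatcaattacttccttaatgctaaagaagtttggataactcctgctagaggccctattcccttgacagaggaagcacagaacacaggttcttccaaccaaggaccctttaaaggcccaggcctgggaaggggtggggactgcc
Vcan: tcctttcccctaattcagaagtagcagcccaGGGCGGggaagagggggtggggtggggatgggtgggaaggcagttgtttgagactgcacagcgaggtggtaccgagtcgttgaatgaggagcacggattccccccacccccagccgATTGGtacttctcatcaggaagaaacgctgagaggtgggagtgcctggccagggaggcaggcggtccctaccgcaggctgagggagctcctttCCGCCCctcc
Tnc has 1 TATA box and 1 GC box match, Hspg2 5 GC box matches, Vcan 2 GC box matches and 1 CCAAT box match, and Lama2 none of the motifs in these letters. Promoters of 29 of the 44 members were in the table. The GC box occurred on either strand in 20 of these 29 windows of 250 bases before the start (68.97%) and in 32.74% of all 32851 promoters listed. The shares for the TATA box were 6.90% and 12.37%, for the CCAAT box 27.59% and 33.85%, for the AP-1 motif 3.45% and 6.75% and for the TEAD motif 6.90% and 12.64%. The shares are of unlike sets, since each member counts with 1 start while all promoters listed include every start of a gene, such as 2 for Tnc. The shares were not tested against each other. A match describes the letters only.

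Other genes of the same pathways, from lists of their own, were counted the same way. Of all 15203 genes tested, 40.5% were higher in adipose and 11.2% lower, and no list was tested against these shares. Of 26 tested matrix receptors, 11 were higher in adipose and 4 lower, the latter led by the collagen-binding integrin chain Itga10 at -9.10 ± 1.64, Itga4 at -3.67 ± 1.08 and the hyaluronan receptor Cd44 at -2.79 ± 0.929. On the adipose side were Bcam, a laminin receptor, at 5.68 ± 0.704, and the integrin chains Itgb3 at 6.04 ± 0.855 and Itga3 at 6.18 ± 0.921. Of the 11 receptors called higher, 9 were above the floor in no marrow library, these 3 among them. Of 17 tested basement membrane components outside the members, 15 were higher and 0 lower, among them the type IV collagen chains Col4a6 at 6.11 ± 0.768 and Col4a4 at 5.73 ± 0.813 and Fras1 at 6.10 ± 0.833. Of these 15, 8 were above the floor in no marrow library, the 3 named among them. Of 29 other matrix glycoproteins 13 were higher, 6 of them above the floor in no marrow library, such as vitronectin, Vtn, at 6.03 ± 0.710. The 2 lower were the cartilage oligomeric matrix protein gene, Comp, at -8.10 ± 1.23 and Wisp1 at -5.13 ± 1.13. Of 16 microfibril and procollagen processing genes 5 were higher, 4 of them above the floor in no marrow library, such as Adamtsl5 at 5.62 ± 0.744, and 1 was lower, Tgfb1 at -2.85 ± 1.12. The medians of these 4 lists were -0.01, 4.95, 2.19 and 0.54, against 1.43 for all genes tested. As for the members, values of genes above the floor in no marrow library are not read as ratios of expression. Another scaling turned the sign of 3 of the 13 glycoproteins and 2 of the 15 basement membrane components called higher, and of none of the receptors and processing genes called higher.

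The second comparison asked whether glutamine changed the members in adipose. None of the 44 passed the test in either direction (edgeR, adjusted p = 1.00 for each), and no gene of the 15114 tested did (0%). DESeq2 called 28 genes higher and 3 lower, and DESeq2 and limma-voom called 0 members as well. At an unadjusted p under 0.05, 3 members were higher and 0 lower, where 1.86% and 2.27% of all genes were. In adipose 26 members had a positive and 18 a negative log2 fold change, with a median of 0.10, against 48.6% positive and a median of -0.02 over all genes. No member had arms without overlap in CPM, where 1.05% of genes did with GLN higher and 0.609% with GLN lower.

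Elastin, its cross-linking enzyme, thrombospondin-2 and fibulin-1 had the smallest p on the higher side. Lox stood at 0.48 ± 0.201 (log2 GLN over CTRL ± SE, n = 4 and 5, unadjusted p = 0.0309 by edgeR), Eln at 0.57 ± 0.239 (0.0324), Thbs2, an inhibitor of vessel growth, at 0.76 ± 0.341 (0.0428) and Fbln1 at 0.56 ± 0.268 (0.0564). For Eln 4 of the 5 GLN libraries, at 869 to 1175 CPM, were above every CTRL library, and GLN library 25_27 at 428 CPM was below all of them. For Lox the GLN libraries ran from 268 to 529 CPM and the CTRL libraries from 245 to 302 CPM. Thbs2 read 34.7, 26.9, 72.9 and 58.8 CPM in CTRL and 76.8, 64.8, 87.7, 50.4 and 132 CPM in GLN adipose libraries. On the lower side the smallest p were of Efemp1 at -0.46 ± 0.235 (0.0702), Lamc1 at -0.31 ± 0.227 (0.193), Thbs1 at -0.37 ± 0.291 (0.23) and Lama5 at -0.79 ± 0.779 (0.33). None of these 8 passed.

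By role, the median log2 fold change in adipose was 0.19 for adhesive genes, 0.18 for elastic fibre genes, 0.12 for lysyl oxidases, 0.12 for latent TGF-beta binding proteins, -0.13 for basement membrane genes and 0.29 for procollagen C-proteinase enhancers. Of the 9 basement membrane genes 7 were negative. Adipose GLN library 25_27 stood apart in several members. It had the lowest GLN value of Matn2, 2.99 CPM against 126 to 184 CPM, and of Postn, Thbs3 and Ltbp2. In that library the 10 mesothelial markers summed to 8.75 CPM, against 286 to 834 CPM in the other 8 adipose libraries, with no marker at 0. Its part in these values was not tested. Without that library and CTRL 23_28, 0 members passed and Thbs1 stood at 0.0701.

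**Figure D4:**
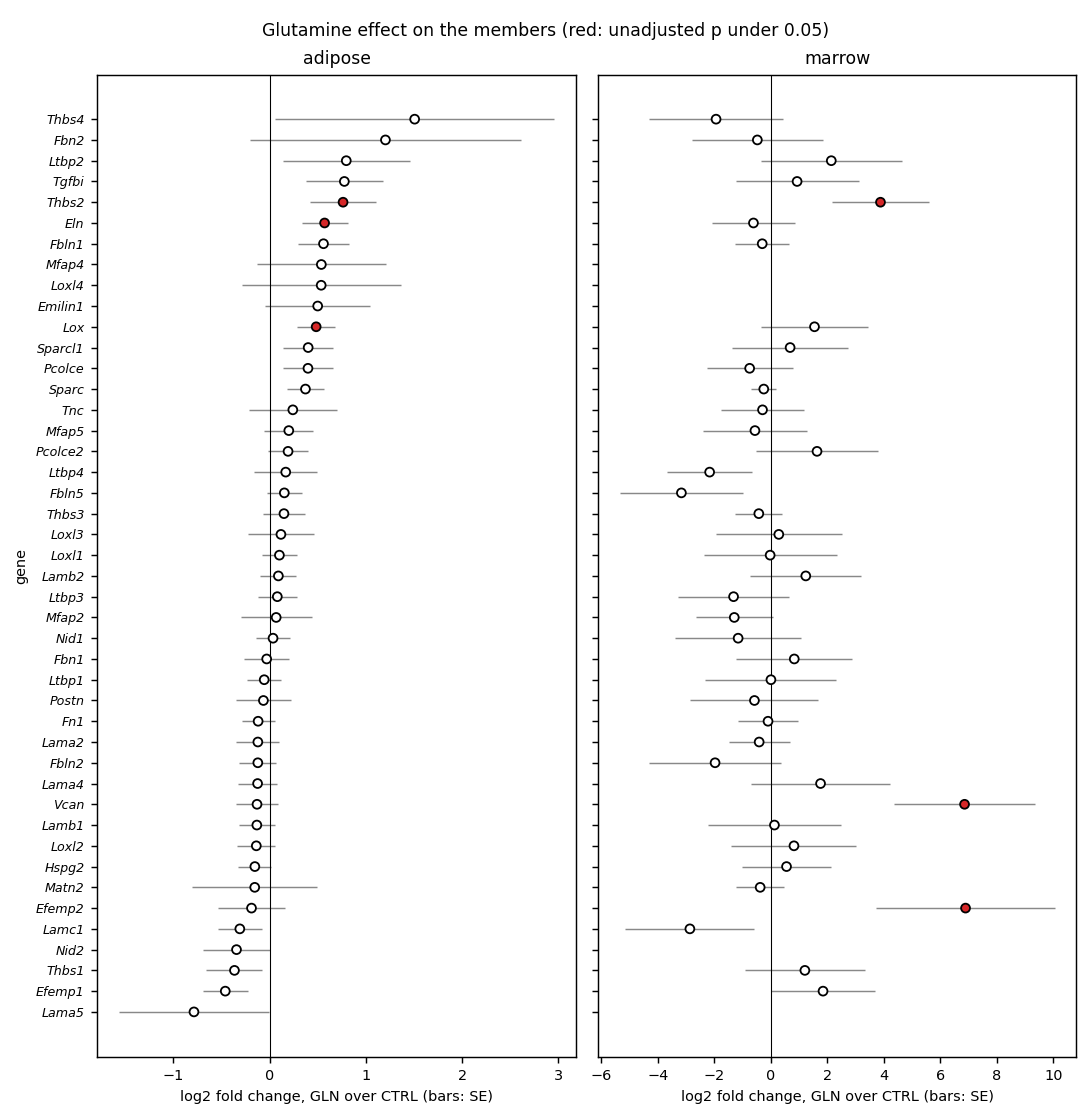
Log2 fold change of each member, GLN over CTRL, with SE, in adipose (left) and marrow (right), ordered by the adipose value. The adipose values lie between -0.79 and 1.51, and the marrow values spread from -3.17 to 6.89 with SEs mostly above 1.

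The third comparison asked the same in marrow. Of the 44 members 39 passed the count filter, and Mfap4, Emilin1, Loxl4, Lama5 and Nid2 did not. None of the 39 passed the test, where 0% of 6041 genes were higher and 0.132% lower. DESeq2 called 416 genes higher and 306 lower, and DESeq2 and limma-voom also called 0 members. At an unadjusted p under 0.05 there were 3 members higher and 0 lower, where 11.8% and 6.82% of genes were. Of the 39 log2 fold changes 18 were positive, against 46.6% of genes. No member had arms without overlap, against 3.53% and 0.248% of genes.

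Versican had the smallest p. Vcan stood at 6.85 ± 2.51 (log2 GLN over CTRL ± SE, unadjusted p = 0.00627, adjusted p = 0.197). Its counts were 307, 68, 70 and 50 in CTRL and 5478, 3000, 21741, 6053 and 52 in GLN. The 4 high GLN libraries were at 194 CPM or more, and the fifth, 25_27, at 1.69 CPM, was below the CTRL range of 1.96 to 8.08 CPM. In library 25_27 the osteoblast markers summed to 1678 CPM against 6300.4 to 8581 in the other 4 GLN libraries, the chondrocyte markers to 492 against 3075 to 6705 CPM and the neutrophil markers to 25599 against 2699 to 18291 CPM. In the CTRL marrow libraries, none above the floor for Vcan, the osteoblast sums were 2223 to 11640 CPM and the chondrocyte sums 96.4 to 4437 CPM. Their neutrophil sums were 4360 to 54234 CPM. CTRL library 14_17 had the highest osteoblast and chondrocyte sums of that arm. The part of these cells in the Vcan values was not tested. Thbs2 stood at 3.88 ± 1.71 (0.0231), with 1 library, GLN 18_20, at 53.8 CPM against at most 0.573 CPM in the other 8. Efemp2 stood at 6.89 ± 3.15 (0.0289), with GLN 10_12 at 357 CPM and GLN 18_20 at 23.7 CPM. Exons of Efemp2 overlap those of Mus81, and reads of the 2 genes in the shared bases cannot be told apart without the strand setting. Efemp1 followed at 1.85 ± 1.85 (0.318), and it stood at -0.26 without GLN library 18_20. On the lower side the smallest p were of Ltbp4 at -2.17 ± 1.49 (0.146), Fbln5 at -3.17 ± 2.19 (0.148), Lamc1 at -2.87 ± 2.29 (0.21) and Mfap2 at -1.30 ± 1.37 (0.345). By role, the marrow medians were -0.18 for adhesive genes, -0.52 for elastic fibre genes, 0.55 for lysyl oxidases, -0.66 for latent TGF-beta binding proteins, 0.13 for basement membrane genes and 0.44 for procollagen C-proteinase enhancers, against -0.22 for all genes tested.

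**Figure D5:**
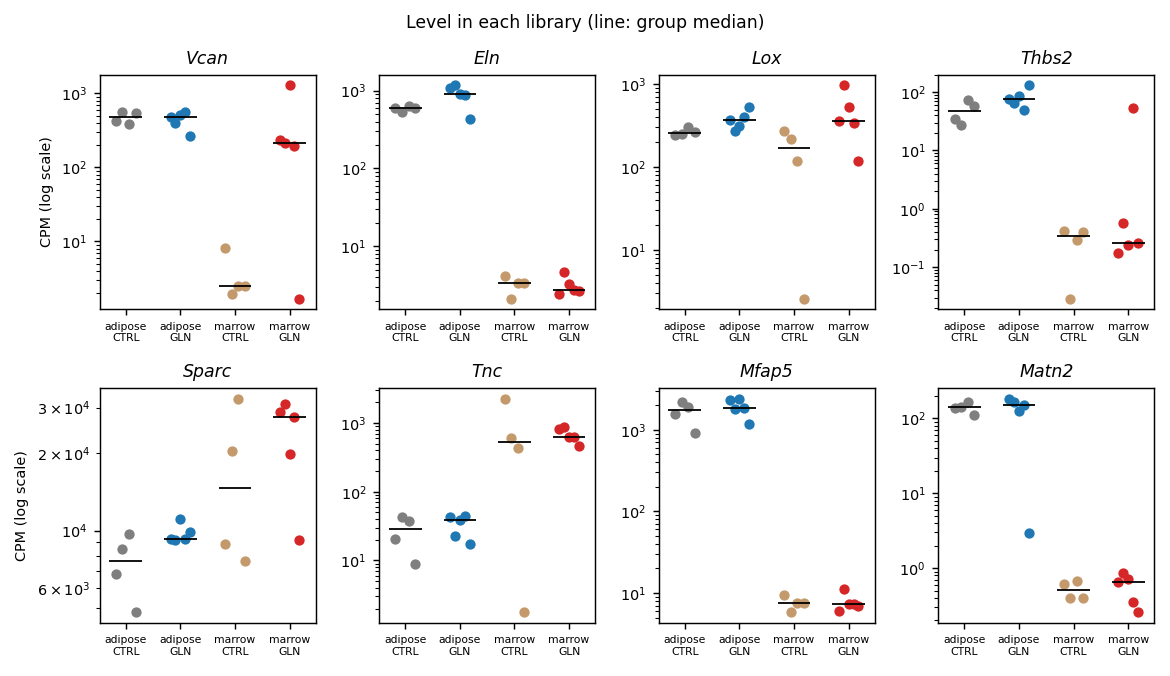
CPM of 8 members in every library (log scale, points) with the group median (line), by tissue and arm. Vcan is high in 4 of 5 GLN marrow libraries and near the floor in CTRL marrow, while Mfap5 and Eln are at or below 11.3 CPM in every marrow library.

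The fourth comparison tested whether the glutamine effect differed between the tissues, as the adipose effect minus the marrow effect. Of the 44 members 1 passed, Vcan, at -7.05 ± 1.68 (log2 ± SE, edgeR adjusted p = 0.0432), where 4.05% of the 15203 genes were called higher and 7.87% lower. Of the 44 values 20 were positive, against 46.7% of genes. In adipose Vcan ran from 384 to 558 CPM in CTRL and from 269 to 558 CPM in GLN, and its log2 fold change was -0.13 ± 0.222. Leaving out 1 library at a time, the call was lost for 11 of the 18, namely each adipose library and marrow CTRL 5_11 and 23_28 (highest adjusted p = 0.0770). The value ran from -7.53 to -4.92, the latter without the unnumbered library. The call was lost with relative log expression factors (adjusted p = 0.0501), upper-quartile factors (0.0623) and limma-voom (1.00), and held with library totals (0.0405) and DESeq2 (0.000404). Over all genes the main fit called 615 higher and 1196 lower. Without any 1 adipose library or marrow CTRL 23_28, 0 genes were called in either direction. The same held with relative log expression and upper-quartile factors. Without marrow CTRL 5_11, 330 genes were higher and 136 lower, and with limma-voom 3 and 0. On the higher side Fbln5 at 2.98 ± 1.80, Lamc1 at 2.68 ± 1.67, Ltbp4 at 2.26 ± 1.46 and Thbs4 at 3.15 ± 2.48 had the smallest p and did not pass (adjusted p 0.328 to 0.513).

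In the other lists, 0 genes were called by edgeR in the glutamine comparison of either tissue. At an unadjusted p under 0.05 there were 4 of 88 genes in adipose and 8 of 51 genes in marrow, where 4.13% and 18.7% of all genes tested were. In the difference between tissues Fbln7, a fibulin, was lower at -7.20 ± 2.05 (adjusted p = 0.0432), 1 of 29 other matrix glycoproteins. Of the 16 microfibril and procollagen processing genes Thsd4 was lower at -9.46 ± 2.79 (0.0434), and Eogt at 8.01 ± 2.38 (0.0434) and Adamtsl3 at 7.56 ± 2.47 (0.0492) were higher. No matrix receptor and no other basement membrane component was called there, where 4.05% of all genes tested were called higher and 7.87% lower.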

How the data were processed

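The 18 bulk samples of marrow and adipose were read with QuantSeq 3′ libraries from total RNA, of which read 1 alone was used, per the labels' protocols. Values in the deposited tables are raw read counts, 1 whole number per gene and library. Per the submitters' processing notes the tools were STAR 2.7.10b, HTSeq 0.11.3 and FastQC 0.12.1, with the build GRCm38. The gene annotation and the strand setting of the counting were not given in the sources used. Exons of 19 members overlap those of another annotated gene. For 9 of them it is a protein-coding gene (Efemp2, Fbn1, Loxl3, Ltbp3, Matn2, Mfap4, Nid2, Pcolce and Thbs3). The others, among them Tnc, Eln, Fn1, Lama2, Lox, Nid1, Thbs1 and Ltbp2, overlap non-coding genes. With the strand setting unknown, reads in the shared bases cannot be told apart. Positions are 1-based, from GENCODE M21. The libraries carry no molecular identifiers in the protocol, so counts are not independent molecules.

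Glutamine effects were tested within a tissue (9 libraries) in R 4.3.3 with edgeR 4.0.16 (filterByExpr, TMM factors, quasi-likelihood F test, two-sided, Benjamini-Hochberg adjustment over all genes tested, threshold 0.05). The difference between tissues and the difference of glutamine effects were tested on all 18 libraries with 4 groups. SE was derived as the absolute log2 value over the root of F. The 44 members are all named. A panel of 19 is given in every library, with the called members of a comparison (up to 8 per direction between tissues) or, where none was called, the 4 with the smallest p per direction. Vcan and Tnc in every library and Thbs2 in every adipose library are also given, and Thbs4, Fbn2, Matn2 and Loxl4 singled out, after their values were seen. The members, roles and other lists were chosen with earlier results of these data known. The scripts were tested on simulated data with known changes. 1 marrow column carries a number pair found in no title, and its prefix names the GLN arm. No library was identical to another. All columns of the tables were used.

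The alternatives were other scaling factors, other count filters, DESeq2 1.42.0, limma-voom (limma 3.58.1), each arm alone, a replicate block, TMM-scaled CPM and leaving out each library. Fits without doubted libraries, on the 16 libraries with shared number pairs, and with marrow counts near the floor set to 0 were added after the data were seen.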

Additional observations from a re-analysis of the deposited data

Results flagged for a closer look

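A member's level was looked at again where, on a log2 scale of CPM plus 0.1, 1 library of a group stood apart from the others by more than Dixon's 95% value allows. This met 33 of the 176 groups of member values checked, and chance gives about 1 in 20. The members are not independent of each other within a library, and the cause was not tested. Some flagged marrow values were not above the floor, such as Lama2 in CTRL 5_11 and Vcan in CTRL 1_3, and are not read as levels.

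In the GLN marrow library without a matching number pair, Fn1 was the highest of its group at 4012 CPM against 959.7 to 1277 CPM in the others. Fbln2 was highest at 101.0 CPM against 2.07 to 4.01 CPM in the others. Loxl4 was highest at 233 CPM against 0 to 0.128 CPM in the others. Pcolce was lowest at 4.80 CPM against 384 to 1396 CPM in the others.

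In the CTRL adipose library 23_28, Thbs1 was the highest of its group at 230.5 CPM against 125 to 136 CPM in the others. Emilin1 was lowest at 2.31 CPM against 22.2 to 23.2 CPM in the others.

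In the GLN marrow library 18_20, Thbs2 was the highest of its group at 53.8 CPM against 0.172 to 0.573 CPM in the others. Sparcl1 was highest at 85.9 CPM against 5.17 to 10.6 CPM in the others. Efemp1 was highest at 74.3 CPM against 1.59 to 3.15 CPM in the others. Emilin1 was highest at 15.2 CPM against 0.0430 to 0.143 CPM in the others. Nid1 was highest at 89.5 CPM against 4.20 to 8.45 CPM in the others. Nid2 was highest at 13.4 CPM against 0.129 to 0.501 CPM in the others. Hspg2 was highest at 28.6 CPM against 2.19 to 3.72 CPM in the others.

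In the GLN adipose library 25_27, Thbs3 was the lowest of its group at 81.5 CPM against 131 to 134 CPM in the others. Postn was lowest at 238 CPM against 572 to 805 CPM in the others. Matn2 was lowest at 2.99 CPM against 126 to 184 CPM in the others. Ltbp2 was lowest at 2.77 CPM against 23.1 to 41.9 CPM in the others.

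In the CTRL adipose library 1_3, Postn was the lowest of its group at 398 CPM against 651 to 704 CPM in the others.

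In the CTRL marrow library 5_11, Tgfbi was the highest of its group at 47.4 CPM against 0.579 to 0.894 CPM in the others. Mfap2 was highest at 19.7 CPM against 0.0360 to 0.184 CPM in the others. Loxl3 was highest at 90.2 CPM against 0.105 to 0.357 CPM in the others. Ltbp4 was highest at 20.0 CPM against 1.69 to 1.79 CPM in the others. Lama2 was lowest at 0.575 CPM against 1.29 to 1.501 CPM in the others.

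In the CTRL marrow library 1_3, Vcan was the highest of its group at 8.08 CPM against 1.96 to 2.50 CPM in the others. Ltbp1 was highest at 168 CPM against 0.844 to 1.24 CPM in the others. Ltbp2 was highest at 121 CPM against 0.143 to 0.298 CPM in the others. Lama4 was highest at 149.9 CPM against 1.41 to 1.89 CPM in the others. Lamb1 was highest at 261 CPM against 2.82 to 3.61 CPM in the others. Nid1 was highest at 139 CPM against 4.23 to 6.26 CPM in the others.

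In the GLN marrow library 25_27, Vcan was the lowest of its group at 1.69 CPM against 194 to 1288 CPM in the others.

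In the CTRL adipose library 14_17, Fbn2 was the highest of its group at 6.27 CPM against 0.167 to 0.242 CPM in the others.

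In the GLN adipose library 10_12, Lama5 was the lowest of its group at 2.15 CPM against 8.03 to 10.8 CPM in the others. Nid1 was lowest at 913 CPM against 1416 to 1489.9 CPM in the others.

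Vcan, which encodes the large proteoglycan versican, was the 1 member whose glutamine effect differed between the tissues by a test of the difference, at -7.05 (log2 adipose effect minus marrow effect, edgeR adjusted p = 0.0432). Leaving out any adipose library, marrow CTRL 5_11 or marrow CTRL 23_28 ended that call, 11 of 18 in all (highest adjusted p = 0.0770). Except for the fit without marrow CTRL 5_11, each of these fits called 0 genes of all those tested. The level of Vcan in the GLN marrow library 25_27, 1.69 CPM, was near that of the CTRL marrow libraries.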

How the results depend on the processing

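The counts of members past the threshold in the tissue difference moved with the scaling. On the adipose side the count, 19 with TMM, was 7 with relative log expression factors, 6 with upper-quartile factors and 29 with limma-voom. Over all genes these counts were 6150, 2465, 3222 and 4085, and on the marrow side 1708, 6524, 5144 and 378. On the marrow side, 8 with TMM, it was 19 with relative log expression factors, 14 with upper-quartile factors, 4 with library totals, 5 without a count filter, 18 with DESeq2, 3 with limma-voom, 4 in the CTRL arm alone, 5 in the GLN arm alone and 4 with marrow counts near the floor set to 0. Over all genes the marrow side held 389 with library totals, 1643 without a count filter and 4160 with DESeq2. It held 899 in the CTRL arm alone, 1088 in the GLN arm alone and 246 with floor counts set to 0. With 1 library left out, the marrow side held 4 to 8 members and 1209 to 1731 of all genes. Libraries of the 2 tissues with the same number pair showed no shared deviation: over 8 pairs the correlation of deviations was -0.01 to 0.03 and 2 libraries correlated best with their own number. This cannot show that the libraries are unpaired, since few genes are well read in marrow and its libraries differ widely. With a replicate block on those numbers, 26 members were higher and 2 lower (22 and 6 without the block on the same 16 libraries), and the difference of glutamine effects called 0. Of all 14814 genes tested there, 7169 were higher and 330 lower with the block, and 5738 and 1453 without it. The difference of glutamine effects, 1 lower and 0 higher, called 0 members and 0 genes lower with relative log expression, upper-quartile factors, limma-voom and the 16 libraries without a block. It called 2 members lower with library totals or the stricter filter, 7 with floor counts set to 0, and 0 to 3 with 1 library left out. Over all genes it called 1535, 1447, 2146 and 0 to 1518 lower there, against 1196 in the main fit. On the higher side it called 1 member without the 2 thinnest marrow libraries and with floor counts set to 0, and 0 to 1 with 1 library left out. Over all genes it called 681, 630 and 0 to 1187 higher there. The glutamine comparisons of each tissue called 0 members under every alternative run. Signs turned for Fbn1 (-1.45 with relative log expression and with DESeq2, -1.48 with upper-quartile factors), Loxl1 (-1.21 with both of the former) and Lamc1 (-0.53 with both), and for Lox (0.25 with library totals, 0.62 with floor counts set to 0), Thbs1 (0.0873) and Pcolce (0.31), both with floor counts set to 0, all between tissues. They also turned for Thbs1 in adipose (0.0701 without CTRL 23_28 and GLN 25_27), Mfap2 in marrow (0.85 with limma-voom), Efemp1 in marrow (-0.26 to 2.19 with 1 library left out) and Thbs4 in the difference of effects (-0.0319 without the 2 thinnest marrow libraries). Without marrow GLN 18_20 the tissue difference of Thbs2 was 5.75 and that of Emilin1 5.92. TMM-scaled CPM moved the mean level of 18 of the 19 panel genes in adipose and 5 in marrow by more than 1 SD. The cause of these changes was not tested. In marrow, 1755 to 7323 genes per library with at least 100 counts limit what can be seen.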
